A study of Mus musculus with 6 samples.

Results

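A set of genes of neutrophil granules and of the neutrophil surface (10 of the 54532 rows in the deposited table, each found once by its symbol) were examined in liver RNA-Seq of g*Spns1*-cKO and control mice. They were taken by name and comprised *S100a8*, *S100a9*, *Ngp*, *Camp*, *Ltf*, *Elane*, *Mpo*, *Retnlg*, *Ly6g* and *Csf3r*. Whole liver was sequenced from 3 mice of each group, 1 poly(A)-selected library per mouse. The g*Spns1*-cKO mice carried *Spns1* alleles with loxP sites around exon 3 and a Rosa26 Cre-ER T2 allele, which makes a tamoxifen-dependent Cre in the whole body and not in hepatocytes alone, and the methods have tamoxifen injected before weaning. The methods name *Spns1* fl/fl littermates without Cre as the controls, while the sample labels call them wild type, and neither source used here gives sex, age at collection, or whether the sequenced livers were perfused.

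Neutrophils are short-lived white blood cells that are made in bone marrow and reach tissues through blood. Their granules are filled in sequence while the cells mature: myeloperoxidase and elastase are made in promyelocytes, and lactoferrin, cathelicidin and Ngp in myelocytes and metamyelocytes, so that mature neutrophils hold these proteins but little of their mRNA. The S100A8 and S100A9 proteins, resistin-like gamma and the G-CSF receptor are still transcribed in mature cells, and *S100a8*, *S100a9* and *Csf3r* are also expressed by monocytes. In bulk tissue, fewer cells of a type cannot be told apart from less RNA per cell, and this holds for every level given here.

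The 6 libraries held between 30350002 and 35295611 counts, and a floor of 3 counts was between 0.0763 and 0.119 CPM, that is, counts over the TMM-adjusted library size, where TMM is the trimmed mean scaling of edgeR. The floor covers counting error only. *Spns1*, the targeted gene, was counted as a whole gene, not for exon 3 alone, and had 1008, 1562 and 875 counts in controls versus 642, 1175 and 698 in g*Spns1*-cKO mice. Scaled, it had 40.4 ± 8.98 CPM in control and 22.1 ± 7.40 CPM in g*Spns1*-cKO livers (SD, n = 3), with -0.87 ± 0.25 for log2 fold change and its SE (edgeR adjusted p = 0.0300), a call that scaling by library size removed (-0.43, edgeR adjusted p = 0.213). Of the 15449 genes with enough counts to test, 41.8% differed between the groups at an edgeR adjusted p under 0.05, 3286 higher and 3166 lower under TMM scaling. With library size alone 7289 were higher and 970 lower, and with upper-quartile scaling 4111 and 2240, and the median over all genes tested, on the log2 scale, went from 0.014 under TMM to 0.46 and 0.14.

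The members fell into 2 kinds by their read numbers. *S100a8*, *S100a9*, *Retnlg* and *Csf3r* had between 140 and 663 counts over the 6 libraries and passed the filter on low counts. The 5 granule genes *Mpo*, *Elane*, *Ltf*, *Camp* and *Ngp* had between 13 and 42 counts in all, *Ly6g* had 2, and these 6 were left out of the test. All 4 tested members were higher in g*Spns1*-cKO livers at an edgeR adjusted p under 0.05 where 21.3% of all genes tested were higher. None of the 4 was lower (0 in edgeR at an unadjusted p under 0.05 and 0 with DESeq2). *Retnlg* entered the test through its counts in g*Spns1*-cKO livers, so its place among the tested members was not independent of the difference.

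**Figure D1:**
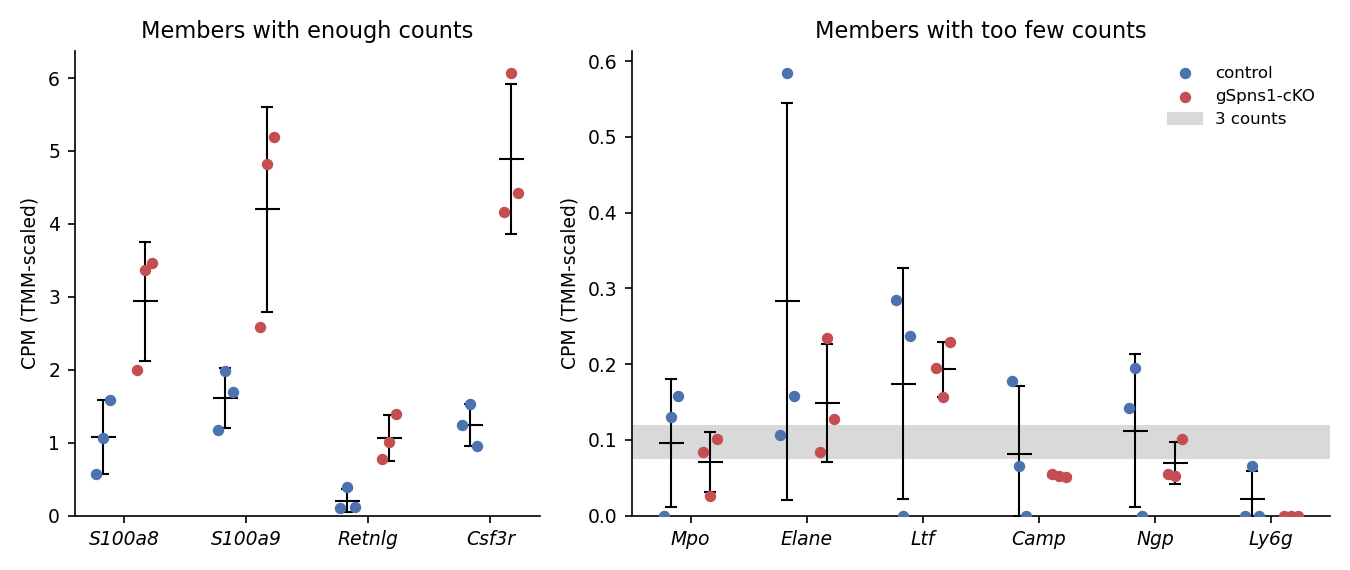
TMM-scaled CPM of each member in every library, with 1 point per mouse (blue control, red g*Spns1*-cKO) and black bars for mean and SD (n = 3, bars end at 0); the panels have different y scales and the grey band is the level of 3 counts. The red points of *S100a8*, *S100a9*, *Retnlg* and *Csf3r* lie above all blue points, whereas the groups overlap for the other members.

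Both subunits of calprotectin, a calcium- and zinc-binding protein that fills the neutrophil cytoplasm, rose. *S100a8* (ENSMUSG00000056054, GRCm38 chromosome 3, 90668978 to 90670035, plus strand) had 16, 33 and 40 counts in controls versus 72, 129 and 136 in g*Spns1*-cKO mice. This was 1.07 ± 0.506 against 2.94 ± 0.815 CPM (SD, n = 3), with 1.46 ± 0.37 for log2 fold change and its SE (edgeR adjusted p = 0.0107). *S100a9* (ENSMUSG00000056071, chromosome 3, 90692632 to 90695721, minus strand) had 33, 61 and 43 counts in controls versus 93, 185 and 204 in g*Spns1*-cKO mice. Its level went from 1.62 ± 0.410 to 4.20 ± 1.41 CPM, with 1.37 ± 0.32 for log2 fold change and its SE (edgeR adjusted p = 0.00600). For both genes the lowest g*Spns1*-cKO liver was replicate 1, and it still lay above the highest control. Groups did not overlap in this direction in 27.1% of all genes tested. Within a library there were 1.66 ± 0.519 *S100a9* counts per *S100a8* count in controls versus 1.41 ± 0.106 in g*Spns1*-cKO mice (SD, n = 3), and the groups overlapped.

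*Retnlg*, which encodes the secreted resistin-like molecule gamma and is restricted largely to myeloid cells, had the largest fold change of the tested members on the fewest reads. It (ENSMUSG00000022651, chromosome 16, 48872621 to 48874496, plus strand) had 3, 12 and 3 counts in controls versus 28, 39 and 55 in g*Spns1*-cKO mice. The log2 fold change was 2.32 (standard error 0.53, edgeR adjusted p = 0.00608), from 0.205 ± 0.160 to 1.06 ± 0.313 CPM. Control replicate 2 held most of the control counts, and without it the log2 fold change of *Retnlg* was 3.20 (edgeR adjusted p = 0.00384).

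*Csf3r*, the receptor through which G-CSF drives neutrophil production and release, had the smallest standard error of the tested members. The gene (ENSMUSG00000028859, chromosome 4, 126024550 to 126044440, plus strand) had 35, 47 and 24 counts in controls versus 150, 233 and 174 in g*Spns1*-cKO mice. It went up from 1.24 ± 0.289 to 4.89 ± 1.03 CPM, with 1.97 ± 0.26 for log2 fold change and its SE (edgeR adjusted p = 0.000311). Its ligand gene *Csf3* had 1 count in the 6 libraries together. A two-sided exact permutation test gave p = 0.1 for each of these 4 members, the smallest value that 3 mice against 3 can reach, so the adjusted values rest on the edgeR model.

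To show the start-site regions of members of both kinds, the bases before the annotated starts of *S100a8*, *S100a9* and *Retnlg*, which rose, and of *Ngp*, which did not pass the count filter, are printed 5′ to 3′ on the strand of the gene (RefSeq sequences, GRCm38.p6). Capitals mark matches, on either strand, to TTGCNNAA for C/EBP factors or GAGGAA for PU.1, the factor families that direct granulocyte genes.
*S100a8*, chr3:90668821-90668977, plus strand: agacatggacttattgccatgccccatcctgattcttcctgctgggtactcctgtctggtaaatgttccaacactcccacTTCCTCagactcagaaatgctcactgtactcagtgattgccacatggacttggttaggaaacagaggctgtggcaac
*S100a9*, chr3:90695722-90695971, minus strand: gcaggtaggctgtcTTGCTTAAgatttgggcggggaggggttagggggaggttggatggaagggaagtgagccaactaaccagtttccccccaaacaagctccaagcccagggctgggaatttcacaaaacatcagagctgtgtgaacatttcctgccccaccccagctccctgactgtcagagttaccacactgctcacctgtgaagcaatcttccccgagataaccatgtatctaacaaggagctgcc
*Retnlg*, chr16:48872358-48872607, plus strand: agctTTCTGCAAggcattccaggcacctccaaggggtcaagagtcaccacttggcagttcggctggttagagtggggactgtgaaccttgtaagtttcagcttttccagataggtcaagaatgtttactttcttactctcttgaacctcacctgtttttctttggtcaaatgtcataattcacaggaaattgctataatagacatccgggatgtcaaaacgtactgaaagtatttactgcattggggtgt
*Ngp*, chr9:110419558-110419746, plus strand: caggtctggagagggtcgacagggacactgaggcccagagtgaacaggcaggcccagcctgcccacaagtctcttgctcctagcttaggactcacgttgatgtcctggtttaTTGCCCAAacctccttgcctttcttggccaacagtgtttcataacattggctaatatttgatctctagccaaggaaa
All 10 members matched a promoter in the RefSeq set. In the 250 bases before the RefSeq start, TTGCNNAA occurred in 5 members (*S100a9*, *Ngp*, *Ltf*, *Retnlg* and 1 of the 2 starts of *Ly6g*) and in 9.56% of 32851 mouse promoters. GAGGAA occurred in 6 members (*S100a8*, *Ltf*, *Elane*, *Mpo*, *Ly6g* and *Csf3r*) and in 23.3% of promoters. *Camp* held neither. The matches of *S100a9* and *Retnlg* lay 236 and 246 bases before the RefSeq start, that of *Ngp* in capitals 138 bases before it, and that of *S100a8* in capitals 170 bases before it. For *S100a8* and *Ngp* the RefSeq start lies inside the gene coordinates given here. Their printed bases stop where those coordinates begin, so these 2 matches lie nearer to the end of the printed bases than to the RefSeq start. A further match of *S100a8* and of *Ngp* lay past the printed bases. No match of one motif overlapped a match of the other in the members. Both motifs were found among members that rose and among those with few counts, and a match of letters does not show binding.

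The 2 members of primary (azurophil) granules had few counts in both groups. *Mpo* (chromosome 11, 87793581 to 87804413, plus strand), the peroxidase that makes hypochlorous acid, had 0, 4 and 4 counts in controls versus 3, 1 and 4 in g*Spns1*-cKO mice. *Elane* (chromosome 10, 79886247 to 79888215, plus strand), neutrophil elastase, had 3, 18 and 4 counts in controls versus 3, 9 and 5 in g*Spns1*-cKO mice. The groups overlapped for both genes, and control replicate 2 was the highest of all 6 libraries for *Elane*. From the summed counts, the fold of g*Spns1*-cKO over control was 0.741 for *Mpo* (95% exact interval 0.242 to 2.26) and 0.504 for *Elane* (0.255 to 0.971). These intervals cover counting error only, and 18 of the 25 control counts of *Elane* came from 1 liver.

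The 3 members of later granules were also sparse. *Ltf* (chromosome 9, 111019271 to 111042767, plus strand), encoding the iron-binding lactoferrin, had 8, 0 and 6 counts in controls versus 7, 6 and 9 in g*Spns1*-cKO mice, a summed fold of 1.16 (0.570 to 2.46). *Camp* (chromosome 9, 109847379 to 109849617, minus strand), the cathelicidin antimicrobial peptide gene, had 5, 2 and 0 counts against 2 in each g*Spns1*-cKO liver, a fold of 0.635 (0.176 to 2.21). *Ngp* (chromosome 9, 110419747 to 110423012, plus strand), whose protein belongs to the cathelicidin-related family, had 4, 6 and 0 against 2, 2 and 4, a fold of 0.593 (0.203 to 1.67). The groups overlapped for all 3 genes. A change of the size of *Csf3r* (3.89-fold from summed counts, 3.16 to 4.84) or of *Retnlg* (5.02-fold, 3.05 to 8.76) lay above the counting intervals of all 5 granule genes, whereas changes up to 2.46-fold lay within the interval of *Ltf*. The interval of *S100a8* (2.81-fold, 2.22 to 3.59) overlapped those of *Mpo* and *Ltf*, and that of *S100a9* (2.61-fold, 2.15 to 3.18) those of *Mpo*, *Ltf* and *Camp*.

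*Ly6g* (chromosome 15, 75155240 to 75159126, plus strand), the surface antigen that defines mouse neutrophils in flow cytometry, had 0, 2 and 0 counts in control livers and 0 in all 3 g*Spns1*-cKO livers. Zero counts allow up to 3 in a library, between 0.0763 and 0.0834 CPM in the g*Spns1*-cKO livers. The defining surface marker of neutrophils was thus at or near 0 in both groups. When edgeR was run without the filter, with 13.9% of 26590 genes higher and 12.9% lower, the 6 sparse members had edgeR adjusted p-values between 0.369 for *Ly6g* and 0.904 for *Ltf*. The exact permutation p of these 6 genes was between 0.6 and 1.

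**Figure D2:**
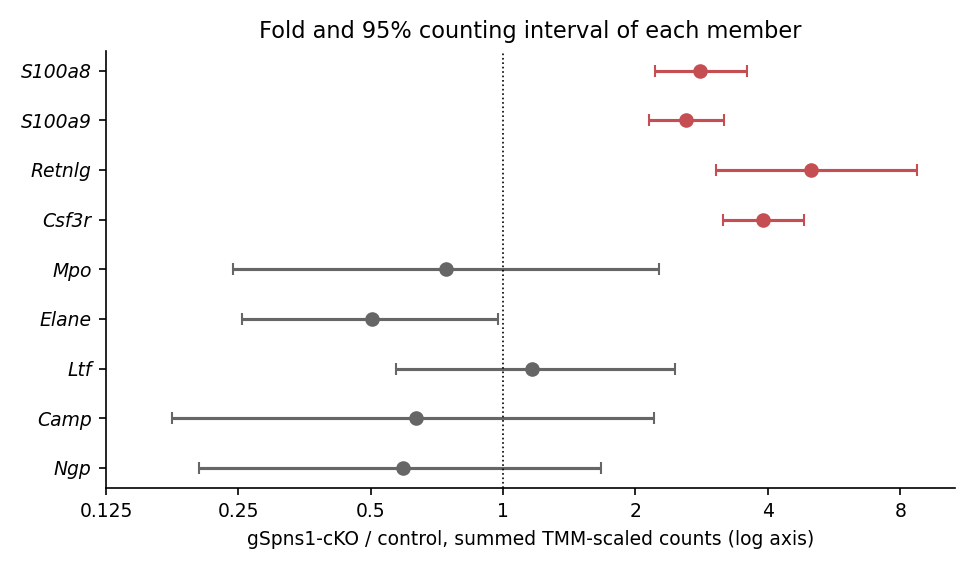
Ratio of summed TMM-scaled counts, g*Spns1*-cKO over control (log axis), with 95% exact intervals for counting error, for the 4 tested members (red) and the 5 granule genes with too few counts (grey); *Ly6g*, with 0 counts in g*Spns1*-cKO livers, is not drawn. The red intervals lie between 2.15 and 8.76, and the grey ones between 0.176 and 2.46.

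Set against each other inside a library, which needs no scaling, granule gene counts per count of the members called higher were lower in g*Spns1*-cKO livers. For every 100 counts of *S100a8*, *S100a9*, *Retnlg* and *Csf3r* together there were 23.0, 19.6 and 12.7 counts of the 5 granule genes in controls versus 4.96, 3.41 and 4.22 in g*Spns1*-cKO mice. The sum of the granule genes itself was 20, 30 and 14 counts in controls versus 17, 20 and 24 in g*Spns1*-cKO mice. The groups overlapped in this sum, while the 4-gene sum was 87, 153 and 110 against 343, 586 and 569. The 2 sums were formed after the counts of the members were seen, and no test was made on them. The 4-gene sum holds the members called higher, with *Retnlg* tested through its g*Spns1*-cKO counts. The lower ratio thus restates their rise and does not show a loss of granule transcripts.

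**Figure D3:**
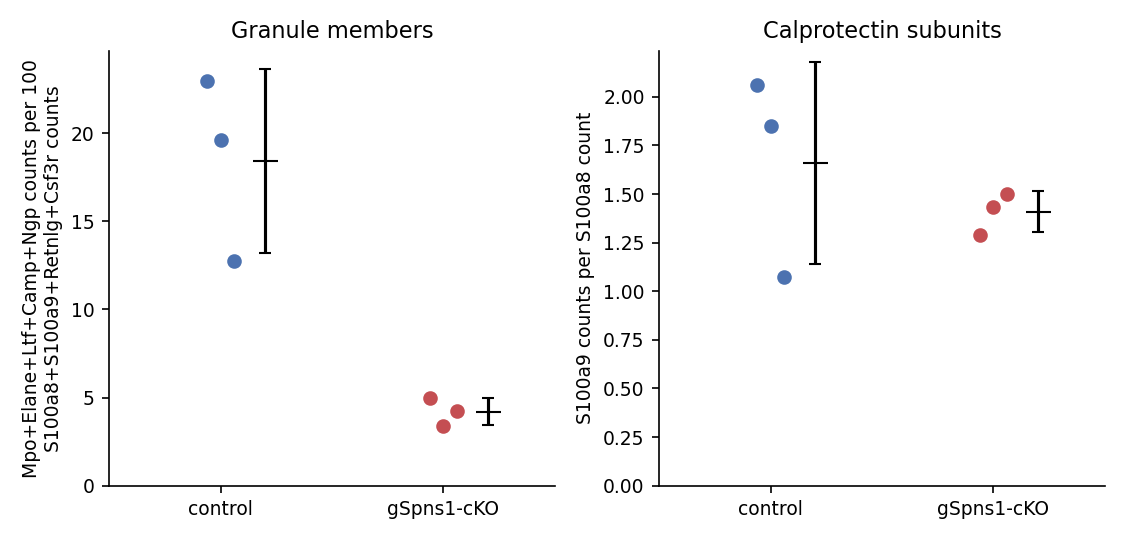
Counts of the 5 granule genes per 100 counts of *S100a8*, *S100a9*, *Retnlg* and *Csf3r* (left) and *S100a9* counts per *S100a8* count (right) in each library, with 1 point per mouse and mean ± SD beside them (n = 3). On the left the controls lie between 12.7 and 23.0 and the g*Spns1*-cKO livers between 3.41 and 4.96, with the members called higher as denominator. On the right the groups overlap.

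Per kilobase of gene length, where levels of different genes can be compared, *S100a9*, *S100a8*, *Retnlg* and *Csf3r* had the highest means, in this order, in both groups. *S100a9* led with 3.10 ± 0.785 CPM per kilobase in controls versus 8.04 ± 2.70 in g*Spns1*-cKO mice, followed by *S100a8* with 1.55 ± 0.729 and 4.24 ± 1.17. The mouse ranges of these 2 genes overlapped in each group, but both lay above all other members. *Retnlg* and *Csf3r* came next, at 1.80 ± 0.528 and 1.35 ± 0.286 in g*Spns1*-cKO livers, with overlapping ranges. In controls these 2 genes were at 0.346 ± 0.270 and 0.344 ± 0.0801, and their ranges overlapped each other and that of *Elane*, so their order there was not resolved. *Elane* was at 0.288 ± 0.267 in controls versus 0.151 ± 0.0791 in g*Spns1*-cKO mice. *Camp*, *Ngp*, *Ltf* and *Mpo* followed, with control means between 0.0280 and 0.107 and ranges that overlapped from each to the next. In g*Spns1*-cKO livers *Csf3r* lay above *Elane* in every mouse, while the order of the genes below it rests on counts near the floor of 3 and was not read.

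Further neutrophil genes were read from 4 hand-written lists. The shares to set beside their counts are those over all genes tested, 21.3% higher and 20.5% lower. In the list of other granule and oxidase genes, 17 of 25 could be tested, 9 were higher and 3 lower, and the median log2 fold change was 1.39, against 0.014 for all genes tested. Each of the 4 lists includes tested genes that passed the filter only with the help of g*Spns1*-cKO libraries, as *Retnlg* did, and could therefore hardly be called lower. Among the 14 genes of this list that reached the filter's level of 0.307 CPM in all 3 controls, 8 were higher and 3 lower, and *Chil3* was not one of them. The phagocyte NADPH oxidase genes *Cybb*, *Cyba*, *Ncf1*, *Ncf4* and *Rac2* were among the higher ones, though *Ncf1* shares 408 exonic bases with *Gtf2ird2* on the opposite strand. *Cybb*, the catalytic subunit, went from 6.51 ± 1.40 to 32.5 ± 7.24 CPM (log2 fold change 2.32, standard error 0.20, edgeR adjusted p = 3.8e-05). *Lyz2*, a lysozyme gene shared by neutrophils and macrophages, had a log2 fold change of 2.33 and *Chil3*, a chitinase-like gene of granulocytes and macrophages, 2.99 (edgeR adjusted p = 5.13e-05 and 0.0018). The lower genes were *Hp*, *Orm1* and *Wfdc21*, of which *Hp* and *Orm1* are acute phase genes of hepatocytes, with log2 fold changes of -1.71, -1.27 and -1.42. *Hp* and *Orm1* overlapped between groups, and with library size alone (-0.97), upper-quartile scaling or no count filter only *Wfdc21* still passed as lower. *Wfdc21* had 596 ± 119 CPM in controls, far above the 1.62 ± 0.410 CPM of *S100a9*, and the cells its counts came from were not tested. *Lcn2*, a secondary granule gene that hepatocytes also express in the acute phase, ranged from 150 to 11874 counts among controls (log2 fold change -1.49, standard error 1.47, edgeR adjusted p = 0.477).

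Some other genes of the granule and oxidase list were sparse. The collagenase gene *Mmp8* had 1, 0 and 0 counts in controls versus 7, 12 and 11 in g*Spns1*-cKO mice and was left out of the test. In edgeR without the filter, 13.9% of genes were higher. *Mmp8* had a log2 fold change of 4.08 there (standard error 1.27, edgeR adjusted p = 0.00707), on 1 control count. *Ctsg*, *Stfa2*, *Stfa3* and *BC100530* had 0 counts in all 6 libraries.

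Among other surface and receptor genes, 24 of 31 were tested, with 19 higher, 0 lower and a median log2 fold change of 1.70; none was lower at an unadjusted p under 0.05 in edgeR or with DESeq2. Of the 19 that reached the filter's level in all 3 controls, 17 were higher and 0 lower. This leaves out 5 tested genes, *Clec4d*, *Clec4e*, *Cxcr2* and *Fpr2* among them. *Itgam*, the integrin subunit CD11b of neutrophils and macrophages, had 14, 14 and 12 counts in controls versus 45, 53 and 51 in g*Spns1*-cKO mice (log2 fold change 1.46, standard error 0.33, edgeR adjusted p = 0.00601); it shares exons with *Gm49368* on the same strand. The C-type lectin receptor gene *Clec4d* had 3 counts in each control and 25, 58 and 46 in g*Spns1*-cKO livers, and the related *Clec4e* 0, 0 and 1 against 18, 16 and 32, a summed fold of 48.9 (95% exact interval 8.48 to 1961). *Lilrb4a*, an inhibitory receptor gene of myeloid cells that shares 1846 exonic bases with *Gm49339*, had a log2 fold change of 2.52. *Cxcr2*, the receptor for CXCL1 and CXCL2, had 2, 25 and 3 counts in controls versus 11, 31 and 27 in g*Spns1*-cKO mice, overlapping (log2 fold change 0.80, standard error 0.77, edgeR adjusted p = 0.434). *Ltb4r1*, *Fpr2* and *Siglece* had log2 fold changes of -0.79, 0.61 and 0.62 without passing (edgeR adjusted p = 0.106, 0.363 and 0.119). The highest control library for *Cxcr2*, *Retnlg* and *Elane* was replicate 2 in each case.

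Of chemoattractants, growth factors and endothelial adhesion genes, 12 of 21 were tested. Of these, 5 were higher and 1 lower, against 21.3% and 20.5% of all genes tested, and the median log2 fold change was 1.02. Of the 8 at the filter's level in all 3 controls, 3 were higher and 1 lower. This leaves out 4 tested genes, *Ccl3*, *Pf4* and *Cxcl2* among them. *Ccl3* had 6, 11 and 0 counts in controls versus 43, 20 and 50 in g*Spns1*-cKO mice (log2 fold change 2.31, standard error 0.71, edgeR adjusted p = 0.0261), and *Pf4*, a platelet chemokine gene, had 2.27. *Cxcl1*, a main neutrophil chemokine, had 9.79 ± 3.21 CPM in controls versus 9.93 ± 2.88 in g*Spns1*-cKO mice (log2 fold change 0.02, standard error 0.29, edgeR adjusted p = 0.965), and *Cxcl2* 1, 4 and 7 against 11, 16 and 28 counts (1.71, standard error 0.66, edgeR adjusted p = 0.0590). *Hc*, complement C5, was the gene that passed as lower (-0.58, edgeR adjusted p = 0.0402), with overlapping groups and a call lost with library size alone, with upper-quartile scaling and with the filter of 10 counts in every library. *C3* and *Selp* had -0.51 and -0.14 without passing (edgeR adjusted p = 0.13 and 0.724). In edgeR without the filter, where 12.9% of genes were lower, *C3* also passed as lower (-0.52, edgeR adjusted p = 0.0102), with overlapping groups.

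Of 12 granulocyte transcription factor genes, 10 were tested, 5 higher and 3 lower, with a median log2 fold change of 0.60. Without *Klf5*, which reached the filter's level in no control, 4 of 9 were higher and 3 lower. *Spi1*, which encodes PU.1, went from 4.24 ± 1.18 to 13.8 ± 1.00 CPM (log2 fold change 1.70, standard error 0.20, edgeR adjusted p = 0.000139), and *Klf5* and *Runx1* had log2 fold changes of 2.59 and 1.63. *Cebpa* and *Cebpb*, which hepatocytes express strongly, fell by 1.41 and 1.25 on the log2 scale (edgeR adjusted p = 0.000213 and 0.000486). *Cebpe*, needed for secondary granule formation in bone marrow, had 14.3 ± 1.59 and 8.37 ± 2.62 CPM (-0.77, edgeR adjusted p = 0.0133, but -0.33 and edgeR adjusted p = 0.19 with library size alone). Its 351, 464 and 389 control counts were far above those of *Ltf*, *Camp* and *Ngp*, and the cells they came from were not tested.

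**Figure D4:**
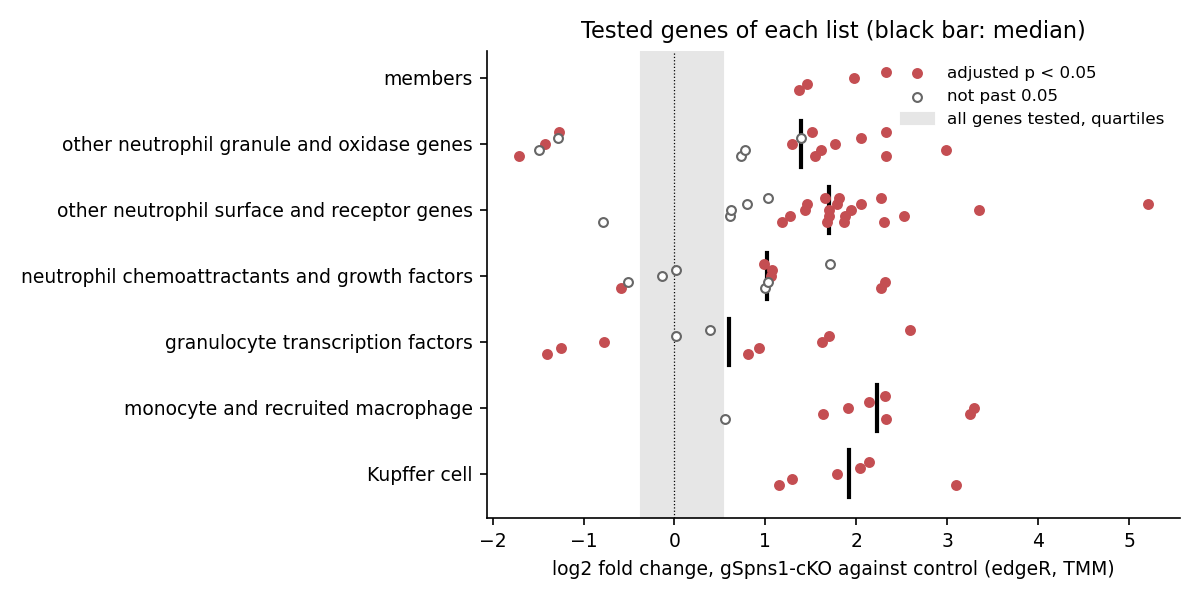
Log2 fold change (edgeR, TMM) of every tested gene of the 4 members, of each further neutrophil list and of the markers of monocytes with recruited macrophages and of Kupffer cells; filled points passed an adjusted p of 0.05, black bars are medians of the lists other than the members and the grey band spans the quartiles of all genes tested, -0.37 to 0.53. The members lie between 1.37 and 2.32, inside the span of the surface genes (-0.79 to 5.21), the monocyte and macrophage genes (0.56 to 3.29) and the Kupffer cell genes (1.14 to 3.10).

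Markers of other blood and liver cells moved in the same libraries, and their part in the member levels was not tested. The counts called in each list stand beside 21.3% higher and 20.5% lower over all genes tested. Of 8 genes of monocytes and recruited macrophages 7 were higher, and their summed level was between 60.7 and 90.6 CPM in control and between 313 and 426 CPM in g*Spns1*-cKO livers. All 6 Kupffer cell genes were higher, between 131 and 221 against between 446 and 711 CPM. The 8 neutrophil markers summed to between 3.34 and 6.04 CPM in control and between 10.1 and 16.4 CPM in g*Spns1*-cKO livers, with *Ly6g* near 0. The 4 of them called higher were the members *S100a8*, *S100a9*, *Retnlg* and *Csf3r*, and *Ly6g* and *Ngp* are members too. This sum therefore largely repeats the member levels given above. *Ly6c2*, a monocyte surface gene, had a log2 fold change and SE of 0.56 ± 0.41 (edgeR adjusted p = 0.305). Of the red cell genes 7 of 9 were tested, 2 higher and 1 lower, with summed levels between 139 and 161 CPM in control and between 89.9 and 197 CPM in g*Spns1*-cKO livers. Of the T and NK cell markers 3 of 8 were higher, all 3 through their g*Spns1*-cKO counts, and 1 was lower (4.23 to 4.86 against 5.92 to 6.88 CPM), and of 4 tested B cell markers (at most 2.81 against at least 2.68 CPM for the list) 0 passed in either direction, whether with edgeR at an unadjusted p under 0.05 or with DESeq2. The stem and progenitor markers had 5 of 6 higher, 3 of 4 among those at the filter's level in all controls (7.79 to 10.2 against 19.2 to 19.8 CPM). The exception was *Kit* (log2 fold change -0.02, edgeR adjusted p = 0.953). Of the platelet markers 1 of 3 tested was higher. This was *Pf4*, already counted among the chemoattractants, and it passed the filter only with the help of g*Spns1*-cKO libraries. The 1 platelet marker at the filter's level in all controls was not higher. In edgeR 0 platelet markers were lower, with 1 lower at an unadjusted p under 0.05 and with DESeq2 (4.90 to 7.11 against 5.42 to 6.46 CPM for the list). Of the eosinophil, basophil and mast cell markers only *Siglecf* was tested, with 0 counts in each control against 12, 11 and 22, so that it could be tested only through its g*Spns1*-cKO counts (at most 0.0325 against 0.521 to 0.992 CPM for the list), with *Mcpt8* and *Epx* at 0 counts in every library. Of the 8 hepatocyte markers, 4 were lower and 0 higher (0 higher at an unadjusted p under 0.05 in edgeR, 1 with DESeq2), and their sum was between 102984 and 115566 CPM in control and between 64744 and 75877 CPM in g*Spns1*-cKO livers. The TMM factors, between 0.834 and 0.873 in controls and between 1.16 and 1.18 in g*Spns1*-cKO libraries, widen this gap. Unscaled, *Alb*, the largest of the 8, had 2175970, 1960906 and 1694817 counts in controls versus 1346605, 1654625 and 1772838 in g*Spns1*-cKO mice, and the groups overlapped. These markers were not read with library size alone.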

How the data were processed

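RNA-Seq of 6 mouse livers was analysed, 3 per group, with groups taken from the sample titles. The authors deposited 1 table of whole-number counts per gene and library, not normalized. Per the labels, reads were trimmed with fastp, aligned with HISAT2 2.0.5 to mm10 and counted with featureCounts 1.5.0-p3; the strand setting is not given in the sources used here, and reads on overlapping genes cannot be separated without it. The deposited FPKM values, the authors' mean signal per group and the log2 fold changes and p-values of the authors' own comparison were not used. The deposited gene lengths gave levels per kilobase. Of the table's rows, 54409 were found in GENCODE M21 (GRCm38), 98.3% of them at the same coordinates.

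The count model was edgeR 4.0.16 under R 4.3.3: filterByExpr by group, TMM, glmQLFit with the robust setting, the quasi-likelihood test and Benjamini-Hochberg adjustment over all genes tested, with a threshold of 0.05. CPM are over the TMM-scaled library size. The standard error is the log2 fold change divided by the square root of F. Exact permutation tests were two-sided, on log2(CPM + 0.1). Fold intervals are exact binomial (Clopper-Pearson) 95% intervals on summed counts. The code was tested on simulated counts. Reads carry no molecular identifiers, and libraries of a group differed beyond sampling noise (chi-square per gene between 38.8 and 114). The labels number the samples without naming animals; p-values measure the spread between these libraries.

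The members and lists were chosen with earlier results of these data known. Named are all members, *Spns1*, the 3 highest and 3 lowest tested genes of each further neutrophil list, 7 fixed genes (*Lcn2*, *Cxcr2*, *Itgam*, *Cxcl1*, *Cxcl2*, *Csf3*, *Cebpe*) and others a sentence turns on. These others were *Orm1*, *Mmp8*, *Ly6c2*, *Siglecf*, *Kit*, *Alb*, the oxidase genes *Cyba*, *Ncf1*, *Ncf4* and *Rac2*, and genes at 0. They were picked after their values were seen. Alternatives were DESeq2 1.42.0, library size, upper-quartile and RLE scaling, filters of at least 1 count in any or 10 counts in every library, a replicate block, each mouse left out, and a threshold of 0.01.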

Additional observations from a re-analysis of the deposited data

How the results depend on the processing

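*S100a8*, *S100a9* and *Csf3r* stayed higher at an edgeR or DESeq2 adjusted p under 0.05 in every alternative fit run, and *Retnlg* in every one in which it was tested; it was left out by the filter of 10 counts in every library, where 3 members passed. At a threshold of 0.01 also 3 members passed, and 3890 genes over the table. With each mouse left out, the number of members called stayed at 4, the log2 fold change ranged from 1.14 to 1.82 for *S100a8*, 1.17 to 1.62 for *S100a9*, 2.00 to 3.20 for *Retnlg* and 1.78 to 2.14 for *Csf3r*, and the highest edgeR adjusted p was 0.0449. That of *Spns1* ranged from -1.18 to -0.68, passing in 3 of the 6 fits (not without control replicate 2, g*Spns1*-cKO replicate 1 or g*Spns1*-cKO replicate 3), and was -0.43 with library size only and -0.74 with upper-quartile scaling, neither past the threshold. Other neutrophil genes called numbered 45, and between 38 and 50 under the alternatives.

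Same-numbered samples deviated with correlations of 0.0421, 0.0317 and -0.0266, and not every sample correlated best with its own number, so the numbers were not taken as pairs. The replicate block gave 6100 genes called, 4 members and 42 other neutrophil genes. *Hp*, *Orm1* and *Hc* were not called lower with the block. Depth limits *Mpo*, *Elane*, *Ltf*, *Camp*, *Ngp* and *Ly6g*, at or near the floor of 3 counts.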

Other observations

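*Prtn3*, the proteinase 3 gene beside *Elane* and like it a gene of primary granules, did not share the sparse counts of its neighbour; it was singled out after its values were seen. It had 45, 726 and 433 counts in controls versus 244, 284 and 129 in g*Spns1*-cKO mice, against 3, 18 and 4 and 3, 9 and 5 for *Elane*, and its groups overlapped (log2 fold change -1.28, standard error 1.00, edgeR adjusted p = 0.369). *Prtn3* shares 159 exonic bases with *Plppr3* on the opposite strand, which had 484 counts in the 6 libraries together against 1861 for *Prtn3*. Control replicate 1 was the lowest of the 3 controls for *Prtn3*, as it was for the secreted acute phase genes *Lcn2*, with 150 counts against 5150 and 11874 in the other controls, and *Hp*, with 91322 against 423014 and 330692. The 4 members that rose did so without this library as well, with log2 fold changes of 1.14, 1.17, 2.00 and 1.95 for *S100a8*, *S100a9*, *Retnlg* and *Csf3r*.

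Among genes with too few counts to test, *Alox5*, the 5-lipoxygenase gene of leukotriene synthesis in myeloid cells, had 1, 0 and 0 counts in controls versus 13, 11 and 9 in g*Spns1*-cKO mice. *Cd177*, a neutrophil surface glycoprotein gene, had 0, 4 and 0 against 11, 7 and 13, and *Mmp25*, a membrane-bound metalloprotease gene of neutrophils, 0 in each control against 4, 3 and 8. *Il1r2* and *Cxcr1*, receptor genes of mature neutrophils, overlapped, with 0, 14 and 0 against 8, 14 and 3 counts and 0, 5 and 0 against 1, 1 and 3. In edgeR without the filter, where 13.9% of genes were higher, the adjusted p was 0.00353 for *Alox5*, 0.0332 for *Mmp25* and 0.0531 for *Cd177*. It was 0.711 for *Il1r2* and 0.883 for *Cxcr1*. These genes were chosen after their values were seen.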
